A study of Mus musculus with 12 samples.

Results

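Nuclear genes for subunits of the mitochondrial respiratory chain and ATP synthase were followed in mouse blood over the first week after injury. Members were chosen by gene name alone: Nduf names with a letter a, b, c, s or v and a number, Sdha to Sdhd, every Uqcr name, Cox names of families 4 to 8 with an isoform letter a to c, and every Atp5 name, without names marked as pseudogenes. This gave 82 of the 37583 genes in the table, with 36 for complex I, 4 for complex II, 8 for complex III, 16 for complex IV and 18 for complex V. Of these, 78 reached a value of 1 in 4 or more libraries and were tested. Cox7b2 had no read in any library, and Cox8c, Atp5g2 and Atp5l2 stayed below that minimum. The name rule leaves out Cox4i1, Ndufab1, Cyc1 and Cycs, which were counted with the related genes. It takes in Atp5s and Atp5sl, now named Dmac2l and Dmac2, which are not structural subunits, and Atp5l2, which the GENCODE annotation lists as a pseudogene. Ndufa4 keeps its complex I name here, although its protein is now counted with complex IV.

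Complexes I to IV carry electrons along the inner mitochondrial membrane, from NADH and succinate by way of ubiquinone and cytochrome c to oxygen. Complexes I, III and IV pump protons, and complex V, the ATP synthase, uses the resulting gradient to make ATP. Each of these complexes except complex II joins nuclear-encoded subunits with others encoded by mitochondrial DNA. In blood, maturing red cells lose their mitochondria, while platelets have mitochondria but no nucleus and carry RNA made in the megakaryocyte.

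All samples came from wild-type mice given a burn together with a tenotomy, the cutting of a tendon (B/T in the labels). Whole blood was passed through the iChip, a microfluidic device, and the enriched material, labelled as cMPCs together with blood cells, was made into total RNA libraries. The groups, each of 4 libraries, were taken 6 hours (6h), 1 day (Day1) and 7 days (Day7) after injury, so every group carried the injury and the comparisons are between times. Uninjured mice were not analysed here. Nothing in the labels says that replicates came from different animals. The p-values therefore measure only how far these libraries spread, and part of that spread may be technical.

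Libraries held 5098395 to 12379041 reads, of which 15316 to 153368 fell on members. The deposited value of a gene is its reads scaled to an effective library size, and 1 read was worth 0.0314 to 0.617 units. Haemoglobin genes took 70.1, 61.2, 70.3 and 26.2% of reads in 6h libraries, 64.1, 16.1, 53.2 and 29.6% in Day1 libraries and 17.6, 54.7, 63.8 and 68.7% in Day7 libraries. Because that share varied so widely, differences are given on the deposited scale and again with reads scaled to all reads, or to the reads outside haemoglobin. Replicate 3 of Day7 stood apart. It had 7635 genes detected, the fewest after the 7631 of 6h replicate 1, and a read was worth more there than in any other library. Of the 78 tested members, 44 (56.4%) had their highest deposited value in that library, where 14.5% of all tested genes did. Scaled to all reads, 42 members (53.8%, against 27.0% of all tested genes) were highest in Day1 replicate 2, and 9 (11.5%, against 2.45%) in Day7 replicate 3. In bulk samples like these, fewer cells of a type and less RNA per cell cannot be told apart. Markers were checked for the labelled material: summed over 6 mesenchymal markers, deposited values ran from 11.7 to 1445 in 6h libraries, 324 to 1910.3 in Day1 libraries and 10.5 to 613 in Day7 libraries, with 3 to 6 of the markers detected per library. Among 14 marker lists, the highest sum was the erythroid or the platelet one in 10 of 12 libraries and the hepatocyte one in Day1 replicate 4 and Day7 replicate 1.

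Members with the highest levels per kilobase of the length in the table were the small subunits. Cox6b2 averaged 1314 deposited units per kilobase over the 12 libraries, Cox6a1 averaged 1067, Ndufa1 averaged 853, Cox8a averaged 621 and Ndufa3 averaged 499.9. That order rests on Day7 replicate 3: without it Cox6b2 averaged 402 units per kilobase, below the 548 of Cox6a1 and the 536 of Ndufa1. By the median over the 12 libraries, Cox6b2 was at 135 units per kilobase, and Cox6b1 was highest at 345, with Cox6a1 at 332 and Ndufa1 at 321. Atp5b, the catalytic beta subunit of ATP synthase, had the highest mean level per gene, 1147, but over a longer gene this came to 298 units per kilobase. Without Day7 replicate 3 its mean per gene was 502 and that of Cox6a1 was 531, and by the median Atp5b was at 243 and Cox6a1 at 322. In complex II, which also belongs to the tricarboxylic acid cycle, the iron-sulphur subunit Sdhb averaged 26.0 units per kilobase, the membrane anchor Sdhd 28.0, the flavoprotein Sdha 7.67 and the other anchor Sdhc 5.37. All 4 complex II genes were therefore well below the leading subunits of the other complexes. Of the 82 members, 69 were detected in all 12 libraries, and 14 had a mean value below 10.

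**Figure D1:**
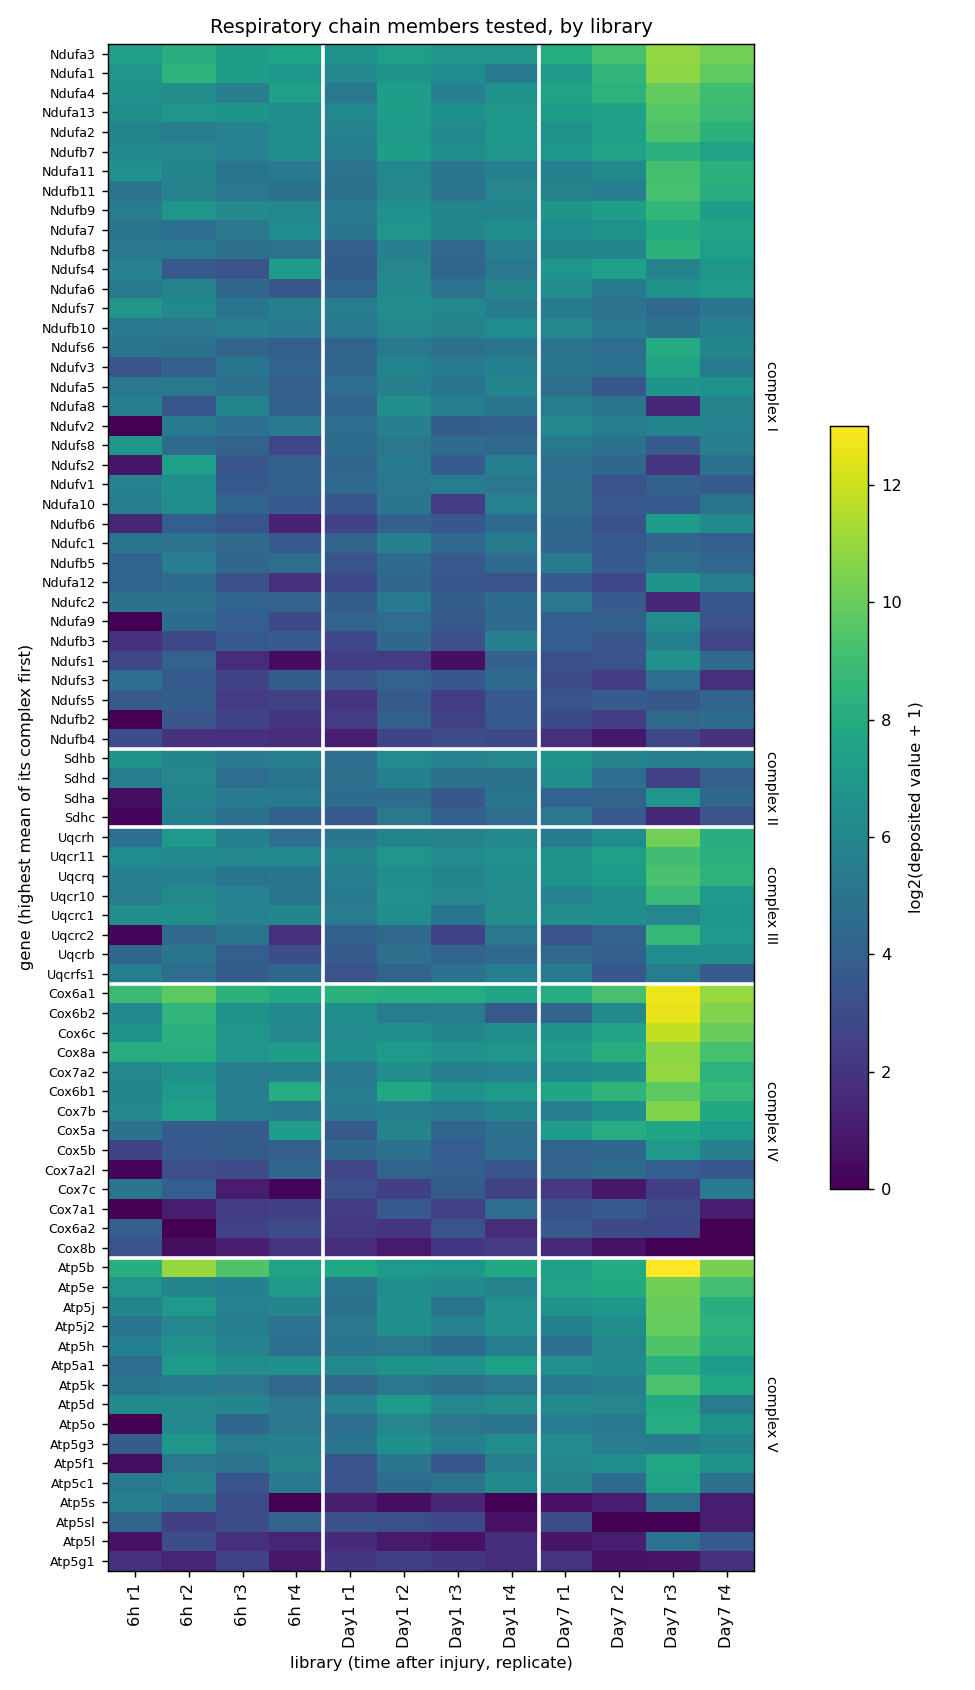
Level of each of the 78 tested members, as log2(deposited value + 1), in the 12 libraries. Rows are genes grouped by complex with the highest mean of each complex first, columns are libraries (r, replicate), and white lines part the times and the complexes. The bright column is Day7 replicate 3, where 44 of the 78 members had their highest value. By reads scaled to all reads, 42 were highest in Day1 replicate 2.

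The highest mean of complex IV over all 12 libraries, after Cox6a1, was that of Cox6b2, an isoform of subunit VIb known from testis, where Cox6b1 is the broadly expressed isoform. The upstream sequences of this pair are shown because either isoform held more reads than the other, depending on the library, which no other isoform pair did. Each window holds the 250 bases before the start site in RefSeq, build GRCm38.p6, read 5′ to 3′ on the minus strand of chromosome 7. Capitals mark a match to the ETS motif CCGGAAG, here on the opposite strand.
Cox6b2, chr7:4753095-4753344: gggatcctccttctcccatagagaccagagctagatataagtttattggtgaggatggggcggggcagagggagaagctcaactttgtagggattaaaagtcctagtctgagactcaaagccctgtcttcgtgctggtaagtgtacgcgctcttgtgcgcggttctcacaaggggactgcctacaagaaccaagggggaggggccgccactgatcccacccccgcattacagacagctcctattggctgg
Cox6b1, chr7:30626115-30626364: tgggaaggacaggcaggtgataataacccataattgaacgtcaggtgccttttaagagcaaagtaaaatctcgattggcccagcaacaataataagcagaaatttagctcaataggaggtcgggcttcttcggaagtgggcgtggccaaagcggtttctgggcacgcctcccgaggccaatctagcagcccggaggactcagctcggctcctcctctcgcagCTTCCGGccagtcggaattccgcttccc

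The 5 motifs below were searched on both strands in these windows, with overlaps between motifs allowed: NRF1 as GCATGCGC, ETS as CCGGAAG, YY1 as GCCATNTT, GATA as AGATAA and KLF1 as CCACACCC. The Cox6b2 window held none of these letters, and the Cox6b1 window held the ETS motif. Of the 82 members, 66 matched an entry in the promoter table. Some genes had more than 1 window, and a gene counted if any of its windows held the motif. The NRF1 motif was found for 12.1% of these 66 members and for 2.56% of all 27025 genes, and the ETS motif for 18.2% against 7.83%. A longer palindromic NRF1 form of 10 letters, the same letters matched on both strands 2 bases apart, was searched first. It was found for 6.06% of the members against 0.877% of all genes, and the 8-letter form replaced it after those shares were seen. YY1 was in 9.09% against 4.49%, GATA in 9.09% against 11.4%, and KLF1 in 3.03% against 3.68%. The 27025 genes were not limited to those tested here. In the libraries, 95.1% of members but 29.8% of all genes reached the minimum for testing, so these shares compare unlike sets. Such matches describe the letters of a window and nothing about binding.

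Cox6b2 had deposited values of 67.8, 378, 104 and 73.4 in 6h libraries, 87.7, 45.0, 44.5 and 11.3 in Day1 libraries, and 18.0, 73.9, 6207 and 1515 in Day7 libraries. Its level in Day7 replicate 3 was far above all others, with Day7 replicate 4 next, while Day7 replicate 1 lay near the bottom. Cox6b1 had deposited values of 61.1, 124, 46.1 and 267 in 6h libraries, 44.7, 213, 96.6 and 137 in Day1 libraries, and 209, 353, 856 and 421 in Day7 libraries, a much narrower range. The reads of Cox6b2 divided by those of Cox6b1 came to 1.11, 3.05, 2.26 and 0.275 in 6h libraries, 1.96, 0.211, 0.461 and 0.0826 in Day1 libraries, and 0.0859, 0.209, 7.25 and 3.60 in Day7 libraries. The ratio was above 1 in 6 libraries, with 3 from 6h, 1 from Day1 and 2 from Day7, so all times spanned both sides of 1. Those 6 libraries were the 6 with the highest haemoglobin shares.

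For every correlation, the log2 of a ratio was taken after 0.5 was added to the reads of each gene. Across the 12 libraries, the log2 of this ratio followed the haemoglobin share with Pearson's r of 0.827 (permutation p = 0.000900). Spearman's rho was 0.706 (permutation p = 0.0126). Over the 6 isoform relations computed, the adjusted values were 0.00540 for r and 0.0416 for rho. Without Day1 replicate 2 and Day7 replicate 1, the pair of libraries farthest from the median share, r was 0.788. With the mean of each time group removed from both measures, r was 0.805. The ratio of reads does not depend on the scaling of a library. The sum of 9 erythroid markers was 16381, 118712, 55003 and 6647 in 6h libraries, 9341, 1052, 6160.0 and 3276 in Day1 libraries, and 2453, 16471, 221648 and 46796 in Day7 libraries, highest in Day7 replicate 3 and 6h replicate 2, and its part in the ratio was not tested. The testis markers Prm1, Prm2, Tnp1 and Tnp2 had 0 reads in all 12 libraries.

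**Figure D2:**
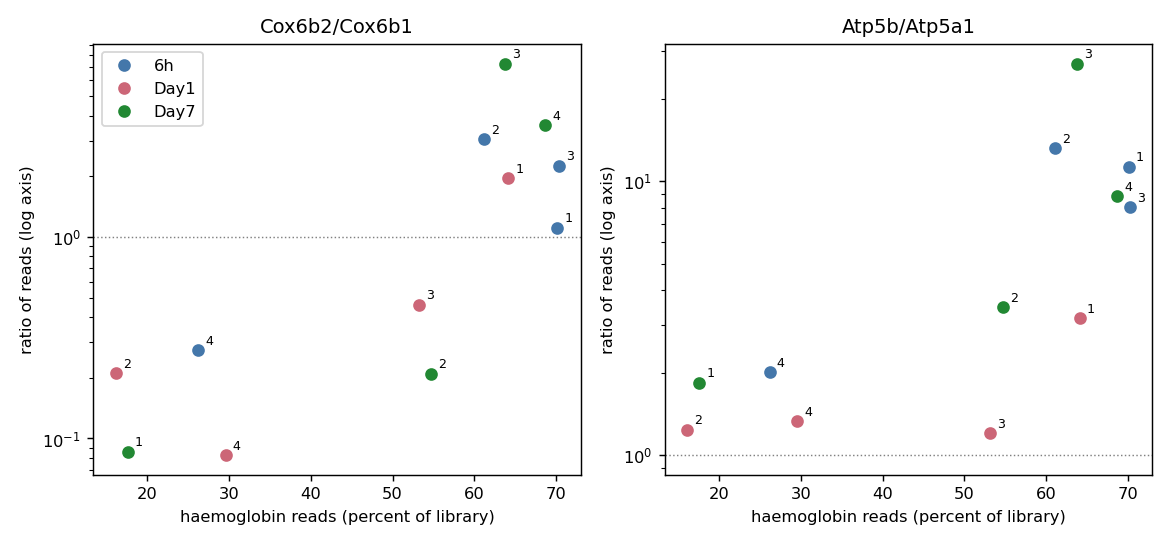
Reads of Cox6b2 divided by reads of Cox6b1 (left) and of Atp5b divided by Atp5a1 (right), on log axes, against the percent of reads on haemoglobin genes. Each point is a library, numbered by replicate and coloured by time, and the dotted line marks equal reads. The Cox6b2/Cox6b1 ratio ran from 0.0826 to 7.25 and was above 1 in the 6 libraries with the highest haemoglobin shares.

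Other isoform pairs were dominated by the broadly expressed form. For Cox6a2, the heart and skeletal muscle isoform of subunit VIa, reads were 0 to 0.0462 times those of Cox6a1 in all 12 libraries. Cox8b, the muscle isoform of subunit VIII in mice, was at 0 to 0.0352 times Cox8a. Cox4i2, the isoform of subunit IV best known from lung, had 13 reads in all, in 1 Day1 and 1 Day7 library. Cox7a1, the muscle and brown fat isoform, reached 0.451 times the reads of Cox7a2 in Day1 replicate 4, with values of 0, 1.14, 4.10 and 4.56 in 6h libraries, 3.83, 11.7, 4.70 and 23.7 in Day1 libraries, and 8.81, 12.4, 6.79 and 0.998 in Day7 libraries. The log2 of its ratio to Cox7a2, with 0.5 reads added to each gene, fell with the haemoglobin share at r of -0.618 (adjusted permutation p = 0.0325). The rho of -0.615 did not pass (adjusted permutation p = 0.0743). Cox7a1 had 0 reads in 6h replicate 1 and 3 each in 6h replicate 2 and Day7 replicate 4. These libraries were rich in haemoglobin, so r rests partly on counts near the floor and on the added 0.5. Without Day1 replicate 2 and Day7 replicate 1, the libraries farthest from the median share, r was -0.617. The call for r depends on how the two-sided p is defined: with the smaller tail doubled, as used here, it passed, and counting permutations by the size of r the adjusted permutation p was 0.0914. Skeletal muscle markers, 8 genes, summed to 0 to 48.5 in 6h libraries, 9.95 to 39.2 in Day1 libraries and 12 to 68.9 in Day7 libraries, and their part was not tested.

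Cox7a2l, which helps join complexes III and IV into supercomplexes, had values of 0.187, 7.95, 7.24 and 19.4 in 6h libraries, 5.69, 17.2, 14.0 and 9.34 in Day1 libraries, and 18.2, 23.2, 13.6 and 11 in Day7 libraries. Its ratio to Cox7a2 ran from 0.00279 to 0.373 and was lowest in 6h replicate 1 and Day7 replicate 3. Cox7a2l had 1 read in the former and 22 in the latter, the libraries with the fewest genes detected. Against the haemoglobin share, the log2 of this ratio had rho of -0.699 (adjusted permutation p = 0.0416) and r of -0.570 (adjusted permutation p = 0.0325). Without Day1 replicate 2 and Day7 replicate 1, r was -0.563. Counted by size, rho still passed, at an adjusted permutation p of 0.0429, and r did not, at 0.0914. Relations for Cox6a2, Cox8b and Atp5g1 did not pass by either measure, with adjusted permutation p of 0.222, 0.298 and 0.291 for r. Cox7b2, the germ cell isoform of Cox7b, was undetected against 9875 reads for Cox7b. Among the genes for the same c-ring subunit of ATP synthase, Atp5g3 held 8958 reads, Atp5g1 376 and Atp5g2 5. Atp5g1 has a near-identical copy in the GENCODE annotation, so some of its reads may be assigned elsewhere.

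Atp5b had deposited values of 287, 1949, 697 and 183 in 6h libraries, 219, 132, 114 and 234 in Day1 libraries, and 171, 252, 8246 and 1284 in Day7 libraries. Its partner in the catalytic head of ATP synthase, the alpha subunit Atp5a1, had values of 25.4, 147, 86.7 and 90.9 in 6h libraries, 69.2, 106, 94.3 and 176 in Day1 libraries, and 93.1, 72.5, 306 and 146 in Day7 libraries. The beta subunit was thus the far more variable of the pair, reaching 24.5% of all member reads in 6h replicate 2. Reads of Atp5b divided by those of Atp5a1 came to 11.3, 13.2, 8.04 and 2.01 in 6h libraries, 3.16, 1.24, 1.20 and 1.33 in Day1 libraries, and 1.84, 3.47, 27.0 and 8.81 in Day7 libraries. The ratio was above 8 in 5 of the 6 libraries with the highest haemoglobin shares and below 4 in all others, Day1 replicate 1 being the exception among the 6.

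In the comparison of Day1 with 6h libraries, no member was higher and none lower by limma, where 0.169% of the 11211 genes tested were higher (19 genes) and 0% lower. Past an unadjusted p of 0.05 was 1 member (1.28%, against 11.2% of all genes in either direction). On recovered reads, edgeR called 0 members (0.0803% of genes higher, 0% lower) and DESeq2 called 0 (1.53% of genes higher, 0.249% lower). The sole member with groups that did not overlap was Ndufa1, lower in Day1 (1.28% of members, against 0.883% of genes), and none was higher in this way, where 5.52% of genes were. The members' median log2 difference was 0.11, against 0.52 over all genes tested, and 45 of 78 were positive; by edgeR and DESeq2 on recovered reads the members' median was -0.25 and -0.29. Scaled to all reads, the members' median was 1.43 against 1.57 over all genes, with no member called where 10.7% of genes were higher and 0.0178% lower. With reads outside haemoglobin as the base, it was 0.97 against 1.44, with no member called where 2.24% of genes were higher and 0.00892% lower. Complex medians on the deposited scale were 0.23 for complex I, 0.00 for II, 0.19 for III, -0.16 for IV and -0.13 for V.

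The comparison of Day7 with Day1 libraries called 4 of 78 members higher on the deposited scale, 5.13% of them, where 2.19% of all genes tested were higher. They were Ndufa1, Ndufa3, Cox5a and Atp5e. No member was lower, where 3.59% of genes were. Members with groups that did not overlap numbered 13 higher (16.7%, against 8.47% of all genes tested) and 1 lower, the complex I core subunit Ndufs7 (1.28%, against 14.5%). The members' median log2 difference was 1.07, with 60 of 78 positive, while the median over all genes was -0.48. Past an unadjusted p of 0.05 were 25 members, all higher, or 32.1% of members against 29.1% of all genes in either direction. The median over all genes depends on the filter. Over the 4383 genes with a mean value of at least 10 it was 0.36, against 1.09 for the 68 members among them.

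Ndufa1, a small accessory subunit of complex I encoded on the X chromosome, had deposited values of 111, 339, 152 and 120.0 in 6h libraries, 68.6, 106, 78.6 and 41.3 in Day1 libraries, and 147, 382, 1803 and 908 in Day7 libraries. All Day7 libraries lay above all Day1 libraries, and Day7 replicate 1 lay within the range of 6h. The mean was 810.1 ± 734 in Day7 libraries and 73.7 ± 26.8 in Day1 libraries (SD, n = 4 each), a log2 difference of 2.96 with a standard error of 0.83 and a limma adjusted p of 0.0407.

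Ndufa3, an accessory subunit of complex I, had deposited values of 159, 292, 151 and 187 in 6h libraries, 102, 159.7, 108 and 116 in Day1 libraries, and 268, 607, 1917 and 1218 in Day7 libraries. Every Day7 library was above every Day1 library, with replicates 3 and 4 of Day7 the highest, and Day7 replicate 1 within the 6h range. The mean was 1003 ± 726 in Day7 libraries and 121 ± 26.3 in Day1 libraries (SD, n = 4 each), a log2 difference of 2.71 with a standard error of 0.78 and a limma adjusted p of 0.0448. Ndufa3 overlaps Tfpt in the GENCODE annotation, and whether the counting used strand is not given in the sources used here.

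Cox5a, the subunit of complex IV whose protein is known to bind a thyroid hormone metabolite, had deposited values of 29.1, 12.1, 12.8 and 152 in 6h libraries, 12, 59.5, 17.7 and 28.4 in Day1 libraries, and 154, 266, 202 and 147 in Day7 libraries. The Day7 libraries lay close together and above all Day1 libraries, and 6h replicate 4 was as high as they were. The mean was 192 ± 55.0 in Day7 libraries and 29.4 ± 21.2 in Day1 libraries (SD, n = 4 each), a log2 difference of 2.87 with a standard error of 0.83 and a limma adjusted p of 0.0446. Replicate 3 of Day7 did not lead here, unlike for the other called members.

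Atp5e, the epsilon subunit in the central stalk of ATP synthase, had deposited values of 110.0, 60.2, 52.1 and 146 in 6h libraries, 30.8, 87.0, 72.6 and 54.8 in Day1 libraries, and 181, 239, 1159 and 558 in Day7 libraries. All Day7 libraries were above all Day1 and all 6h libraries, and replicate 3 of Day7 was highest. The mean was 534 ± 448 in Day7 libraries and 61.3 ± 24.2 in Day1 libraries (SD, n = 4 each), a log2 difference of 2.82 with a standard error of 0.78 and a limma adjusted p of 0.0403.

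**Figure D3:**
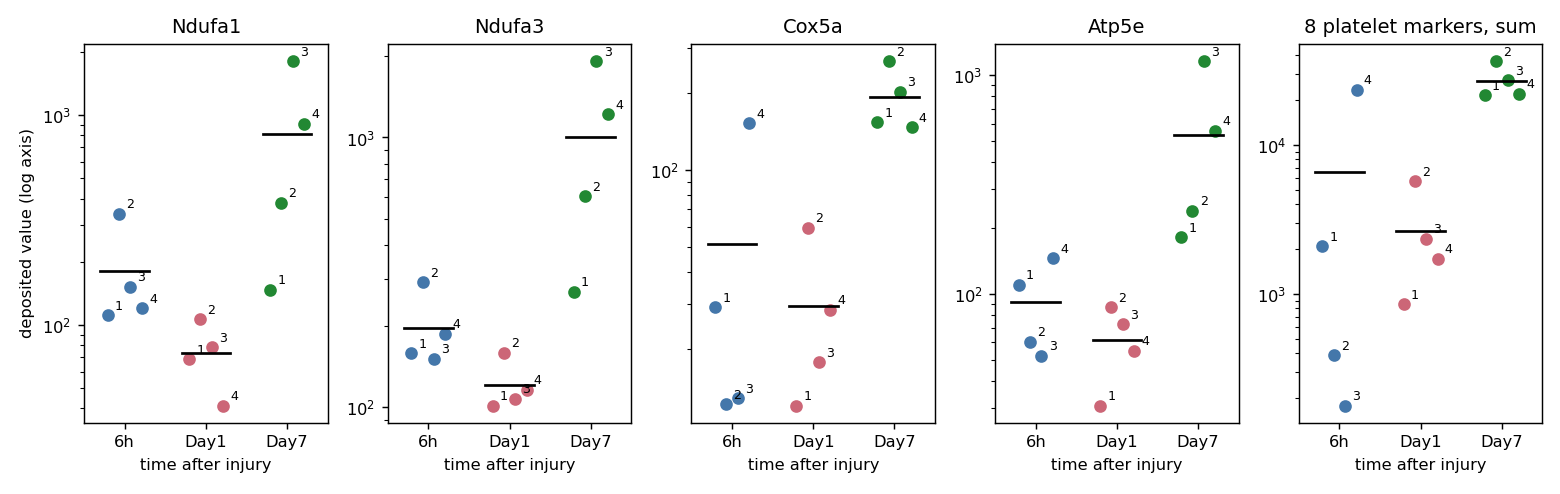
Deposited values of the 4 members that passed in Day7 against Day1 and the summed values of 8 platelet markers, on log axes. Points are libraries numbered by replicate and bars are means of 4 libraries. All Day7 points of each member lie above all its Day1 points, and for Cox5a and the platelet sum 6h replicate 4 lies near the Day7 points. Scaled to all reads, none of the 4 members passed.

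The 4 calls were made on the deposited scale and depend on the scale, on settings of the fit and on single libraries. On the deposited scale, all 4 passed with a pseudocount of 4, and only Ndufa1 and Cox5a with a block for replicate number. With no filter on the genes, none passed. Scaled to all reads, no member was higher (0.0892% of genes were) and 7 were lower (8.97% of members, against 35.3% of genes), namely Ndufv1, Ndufs7, Ndufc1, Ndufs3, Ndufb10, Ndufc2 and Atp5g1. Scaled to reads outside haemoglobin, none was higher (0.187% of genes) and 7 were lower (31.5% of genes), with Atp5sl in place of Atp5g1. With any of the 4 Day1 libraries left out, or replicate 2, 3 or 4 of Day7, none of the 4 passed, at adjusted p of 0.0624 to 0.111 by limma. Without Day7 replicate 1, 11 members were higher (14.1%, against 4.41% of genes) and none lower (4.28% of genes). On recovered reads edgeR called no member (0% of genes higher, 0.00892% lower), with 28 past an unadjusted p of 0.05 (35.9% of members, against 21.3% of genes), and DESeq2 called 15 higher (19.5% of the 77 it tested, against 4.79% of genes) and 0 lower (11.5% of genes).

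Platelet markers, 8 genes, summed to 2085, 386, 177 and 23539.5 in 6h libraries, 852, 5689.9, 2341 and 1720.2 in Day1 libraries, and 21584, 36548, 27284 and 22167 in Day7 libraries. The 5 libraries with the highest sums were 6h replicate 4 and all of Day7, and these were also the 5 with the highest Cox5a. Of the 8 markers, 5 were higher in Day7 than in Day1 by the same limma test, as were 1 of 9 erythroid and 1 of 5 tested neutrophil markers. Median log2 differences were 3.97 for the platelet, 2.78 for the erythroid and 2.48 for the neutrophil markers. They were 0.21 for T cell, -0.22 for B cell and -1.23 for monocyte markers, with none called. For Ndufa1 the 6h library of the highest platelet sum had 120 units, below the 339 of 6h replicate 2, whose platelet sum was 386. The erythroid sums given above were highest in 6h replicate 2 and Day7 replicate 3, and the part of any of these cell types in the calls was not tested. Of 4 mesothelial markers, 3 were lower in Day7 than in Day1 by limma, and their sum was 0.617 to 89.1 in Day7 libraries and 244 to 1394 in Day1 libraries, with no overlap. Of 6 mesenchymal markers, 5 were tested and 2 were lower, Col1a1 and Col1a2. The median log2 difference was -4.69 for the mesothelial and -4.00 for the tested mesenchymal markers, and their part in these calls was not tested. Y-linked genes had reads in 2 of 4 6h, 3 of 4 Day1 and 0 of 4 Day7 libraries. With a term for such reads in the fit, no member and no gene passed in Day7 against Day1. Past an unadjusted p of 0.05 were 11 members (14.1%, against 15.8% of all genes). The members' median log2 difference with this term was 1.12, against -0.27 over all genes. Such reads were absent from Day7 and present in most Day1 libraries, so this term and the time cannot be fully told apart.

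Although the direction of single members turned with the scaling, the order of the complexes did not. Each scaling multiplies all genes of a library by 1 factor. Apart from the added 1, it shifts the differences of all genes alike. This order could therefore hardly change, and its sameness is no further evidence. The added 1 weighs more on genes of low value, so the place of a complex against the median of all genes could change. The members' median minus that of all genes was 1.55 on the deposited scale, 0.70 scaled to all reads and 1.13 scaled to reads outside haemoglobin. Day7 minus Day1 medians were -0.77 for the 7 core subunits of complex I, 1.07 for its 29 accessory subunits, -0.20 for complex II, 1.23 for III, 2.00 for IV and 1.30 for V on the deposited scale. They were -2.61, -1.09, -2.20, -0.90, -0.17 and -0.39 in the same order scaled to all reads, and scaled to reads outside haemoglobin -2.52, -0.78, -2.01, -0.61, 0.14 and -0.11. Over all genes the medians were -0.48, -1.78 and -1.92 on these 3 scales. The accessory subunits and complexes III, IV and V were above the median of all genes on each scale, and the complex I core was below it on each. Complex II was above it on the deposited scale and below it on both others. Over only the genes with a mean value of at least 10, the deposited median was 0.36, above that of complex II. These are descriptions of the lists, with no test.

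**Figure D4:**
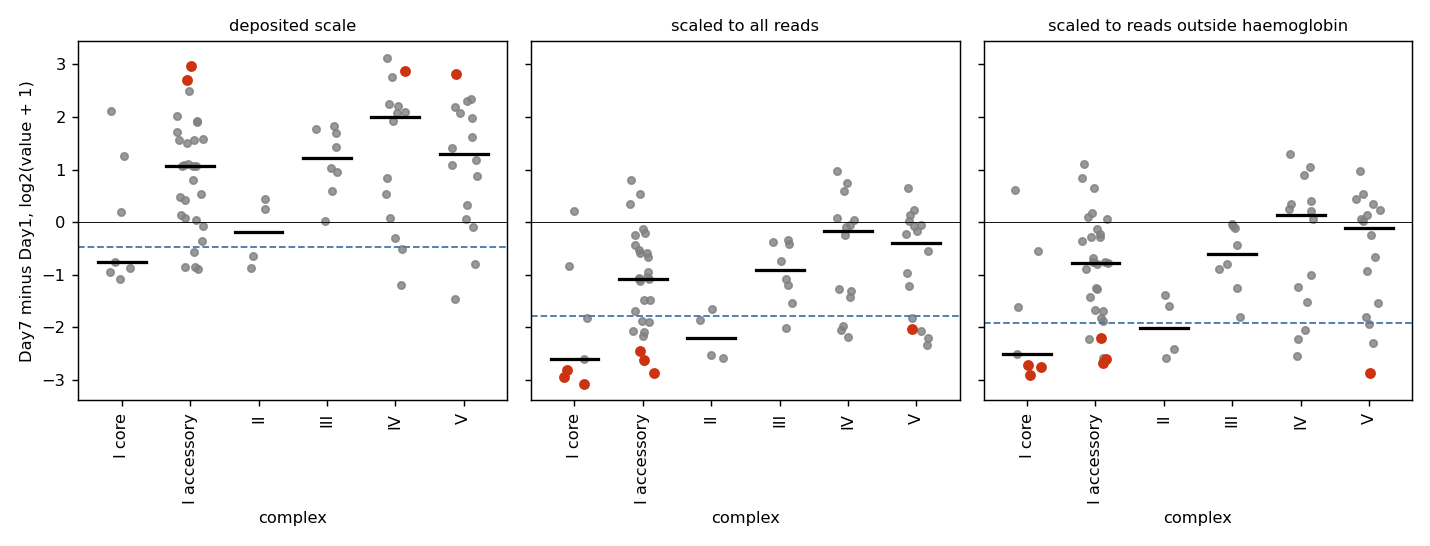
Day7 minus Day1 difference in log2(value + 1) for each tested member, by complex, on the deposited scale and with reads scaled to all reads or to reads outside haemoglobin. Points are members, red where the adjusted p passed 0.05, black bars are medians per complex, and the dashed blue line is the median of all 11211 genes tested. The members' median is 1.07 on the deposited scale, -1.08 scaled to all reads and -0.79 scaled to reads outside haemoglobin.

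Each complex's share of member reads within a library, which no scaling can alter, also differed between libraries. Complex II took 3.63, 2.92, 3.58 and 3.59 in 6h libraries, 3.34, 3.84, 3.63 and 3.5 in Day1 libraries, and 4.93, 1.67, 0.339 and 0.534 in Day7 libraries, in percent. The first 2 times held it between 2.92% and 3.84%, while Day7 libraries ran from 0.339% in replicate 3 to 4.93% in replicate 1, so Day7 lay both below and above them. The 7 core subunits of complex I, which carry its electron path, took 7.83, 5.09, 2.83 and 3.65 in 6h libraries, 5.70, 5.39, 5.72 and 4.72 in Day1 libraries, and 4.36, 2.16, 0.454 and 1.18 in Day7 libraries, in percent. Replicates 2, 3 and 4 of Day7 had the 3 lowest shares and replicate 1 of Day7 lay among the earlier libraries. Complex IV took 29.5, 28.7, 22.5 and 29.1 in 6h libraries, 29.2, 21.1, 24.3 and 17.9 in Day1 libraries, and 22.2, 29.7, 45.1 and 37.5 in Day7 libraries, in percent, highest in Day7 replicates 3 and 4. In Day7 replicate 3, Atp5b, Cox6a1, Cox6b2, Cox6c and Cox7a2 alone held 52.7% of member reads, and the 5 leading members of Day1 replicate 2 held 19.9%.

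**Figure D5:**
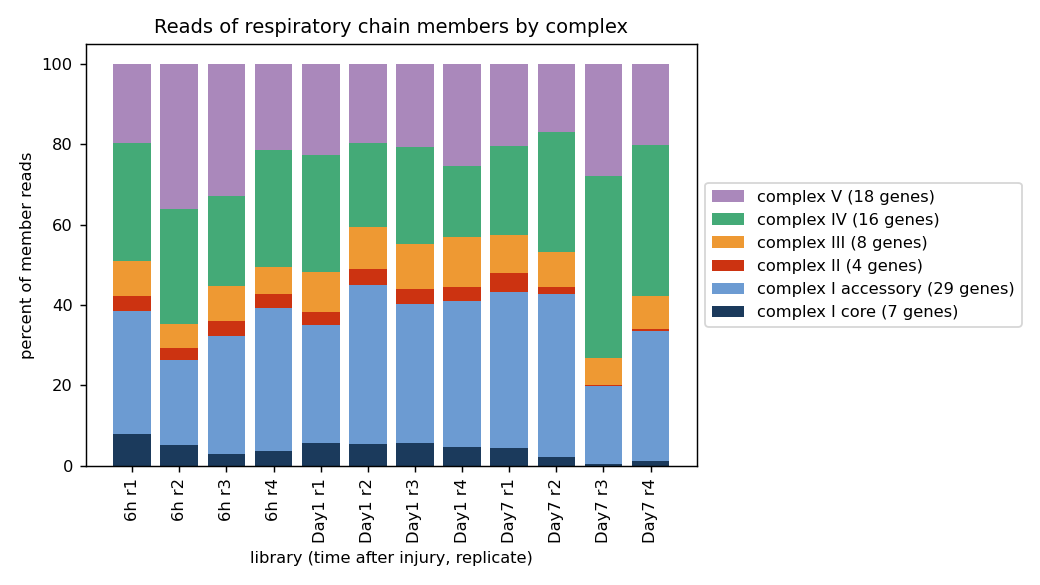
Percent of member reads on each complex in the 12 libraries (r, replicate), with complex I split into 7 core and 29 accessory subunits. Bars sum to 100% in each library. Complex II narrows to 0.339% in Day7 replicate 3 and 0.534% in Day7 replicate 4, and complex IV widens there to 45.1% and 37.5%.

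The complex II genes did not share 1 pattern. Sdhb had deposited values of 102, 60.2, 41.0 and 45.8 in 6h libraries, 24.5, 75.3, 54.5 and 63.7 in Day1 libraries, and 102, 56.3, 46.3 and 48.2 in Day7 libraries, and the 3 times overlapped. Sdhd had deposited values of 44.1, 63.6, 25.3 and 31.7 in 6h libraries, 26.6, 51.2, 28.7 and 28.5 in Day1 libraries, and 86.3, 25.6, 4.93 and 14.6 in Day7 libraries, with Day7 replicate 1 the highest library and Day7 replicate 3 the lowest. Sdha had values of 0.373, 56.8, 38.1 and 41.1 in 6h libraries, 23.6, 22.9, 11.1 and 31.7 in Day1 libraries, and 16.3, 17.6, 118 and 19.3 in Day7 libraries, highest in Day7 replicate 3 and near 0 in 6h replicate 1. None of the 4 passed in any of the 3 comparisons.

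In complex III, Uqcrh, the hinge protein near cytochrome c1, had deposited values of 26.0, 126, 52.1 and 24.8 in 6h libraries, 33.5, 58.3, 54.5 and 69.5 in Day1 libraries, and 39.1, 78.9, 1213 and 282 in Day7 libraries. Uqcr11, a very small membrane subunit, had values of 80.7, 73.8, 68.8 and 73.9 in 6h libraries, 57.6, 116, 75.5 and 95.8 in Day1 libraries, and 99.5, 160.4, 524 and 310.3 in Day7 libraries, although it has near-identical copies and its reads may be split. Both were highest in replicates 3 and 4 of Day7, and neither passed in any comparison. In complex IV, Cox6a1 had deposited values of 463, 852, 323 and 227 in 6h libraries, 320.3, 281, 267 and 195 in Day1 libraries, and 267, 595, 6572 and 2050.0 in Day7 libraries, with Day7 replicate 1 inside the range of Day1. Cox8a, a small membrane subunit, had values of 270.3, 298, 111 and 157 in 6h libraries, 89.2, 131, 95 and 119 in Day1 libraries, and 147, 271, 1752 and 604 in Day7 libraries, with every Day7 library above every Day1 library but an adjusted p of 0.102 by limma. Cox7b, another small subunit of complex IV, had values of 67.0, 170.0, 48.8 and 41.2 in 6h libraries, 39.9, 47.8, 41.1 and 57.1 in Day1 libraries, and 49.2, 92.3, 1485 and 239 in Day7 libraries.

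In the comparison of Day7 with 6h libraries no member passed, where 0.607% of genes tested were higher and 0.277% lower by limma. Past an unadjusted p of 0.05 were 27 members, 26 of them higher (34.6% of members, against 18.0% of all genes in either direction). On recovered reads edgeR called no member (0.517% of genes higher, 0.232% lower) and DESeq2 called 4 higher (2.59% of genes higher, 7.37% lower), namely Atp5e, Cox7a2, Atp5j2 and Uqcrq. Without 6h replicate 4, the 6h library with the high Cox5a, 1 member, Cox5a, passed by limma (1.28% higher, against 5.33% of genes, and none lower, against 0.856%). Groups did not overlap for 12 members, all higher (15.4% of members, against 3.45% of genes tested), and for none lower, where 2.38% of genes were. The members' median log2 difference was 1.38 against 0.13 over all genes, with 62 of 78 positive. Among genes with a mean value of at least 10, the medians were 1.49 for members and 0.72 for all. The medians were 0.59 against -0.19 scaled to all reads, where no member and 0% of genes passed in either direction. They were 0.42 against -0.38 scaled to reads outside haemoglobin, with no member called where 0.0892% of genes were higher and 0.428% lower. Without Day7 replicate 3 the members' median on the deposited scale was 0.73 against 0.21. In Day7 against Day1, leaving out that library gave 0.64 against -0.30. All 3 comparisons share groups, so they are not independent of each other.

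Related genes were taken from 9 lists of 89 genes, of which 75 were tested, and 2 of them passed, both higher in Day7 against Day1. Of all genes tested, 2.19% were higher in that comparison and 3.59% lower, so 2 of 75 is near the general share. Atpif1, the inhibitor of ATP synthase that blocks ATP hydrolysis, had deposited values of 223, 372, 142 and 365 in 6h libraries, 162, 227, 159 and 169 in Day1 libraries, and 524, 1348, 3179.8 and 2132 in Day7 libraries. Every Day7 library was above every other library. The mean was 1796 ± 1132 in Day7 libraries and 179 ± 32.0 in Day1 libraries (SD, n = 4 each), a log2 difference of 3.05 with a standard error of 0.80 and a limma adjusted p of 0.0335. Cox17, the copper chaperone of complex IV assembly, had values of 85.7, 177, 75.8 and 105 in 6h libraries, 47.3, 101, 48.0 and 54.4 in Day1 libraries, and 116, 291, 1055 and 566 in Day7 libraries. Its Day7 libraries were all above its Day1 libraries, and Day7 replicate 1 lay within the 6h range. The mean was 507 ± 409.6 in Day7 libraries and 62.6 ± 25.6 in Day1 libraries (SD, n = 4 each), a log2 difference of 2.65 with a standard error of 0.78 and a limma adjusted p of 0.0475. Neither passed when reads were scaled to all reads, nor with any of the Day1 libraries left out.

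Of 20 complex IV assembly genes, 16 were tested and Cox17 alone was called. None of the 13 assembly genes of complex I, the 4 of complex II, the 5 tested of 6 for complex III or the 13 of the tricarboxylic acid cycle passed in any comparison. The median Day7 minus Day1 difference on the deposited scale was -0.60 for complex I assembly, -1.35 for complex III assembly, -0.28 for the tricarboxylic acid cycle, -0.25 for complex IV assembly and -0.17 for complex V assembly and its inhibitor. It was 0.21 for complex II assembly, 0.21 for uncoupling proteins and carriers and 0.58 for subunits and carriers outside the name rule, against 1.07 for the members and -0.48 for all genes. Among 12 regulators of mitochondrial genes the median was -0.93 over the 8 tested, and none passed. Ppargc1a, a coactivator that drives mitochondrial biogenesis, had 6 reads in all.

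Among subunits outside the name rule, Cox4i1, the broadly expressed form of complex IV subunit IV, had deposited values of 101, 106, 73.1 and 116 in 6h libraries, 56.6, 173, 116 and 174 in Day1 libraries, and 234, 249.6, 1025 and 374 in Day7 libraries. Every Day7 library was above every other library, but the limma adjusted p was 0.141 in Day7 against Day1. Cyc1, the cytochrome c1 subunit of complex III, had values of 44.1, 22.7, 33.3 and 17.7 in 6h libraries, 43.0, 48.5, 27.1 and 39.2 in Day1 libraries, and 53.7, 19.9, 29.6 and 14.3 in Day7 libraries, and the times overlapped. Ndufab1, an acyl carrier protein within complex I, had values of 5.97, 10.2, 0.966 and 15.8 in 6h libraries, 3.83, 4.74, 15.9 and 5.10 in Day1 libraries, and 3.03, 0.574, 1.23 and 1.66 in Day7 libraries, and neither gene passed in any comparison. Cycs, somatic cytochrome c, had 90 reads in all and was not tested. Ucp2, an uncoupling protein of blood and immune cells, had the highest values of the related genes, 2557, 9373, 3956 and 1038 in 6h libraries, 1588, 204, 1057 and 516 in Day1 libraries, and 248, 1739, 21451 and 4898 in Day7 libraries. It was highest in the libraries with the highest erythroid sums, Day7 replicate 3 and 6h replicate 2, and did not pass. The brown fat and muscle forms Ucp1 and Ucp3 had 0 reads in all 12 libraries.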

How the data were processed

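The deposited table gives a signal for 37583 genes in 12 libraries, which the authors named CPM. The submitters' processing notes name STAR 2.7.10, HTSeq 2.0.1 and mm9; annotation, strand setting and the scaling step are not given in those sources. Deposited columns are whole multiples of the value of 1 read (100% of values whole within 0.001 reads), so reads were recovered. The effective library size behind each column equalled a TMM size recomputed in edgeR over all genes in the table times 0.941 in all 12; the TMM alternative below used only the genes tested, which gave other factors. Sample titles gave the groups and the replicate numbers. The length column is the authors' own.

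The 11211 genes that reached a value of 1 in 4 or more libraries were tested with limma 3.58.1 in R 4.3.3, with trended variance, on log2(value + 1), which understates changes of low genes. All 12 libraries entered with time as the sole factor, and Benjamini-Hochberg adjustment over all genes tested used a threshold of 0.05. Alternatives were DESeq2 1.42.0 and the quasi-likelihood test of edgeR 4.0.16, both on recovered reads, other scalings, filters and pseudocounts, a term for Y-linked reads, array weights, a replicate block, only the groups compared, and each library left out. On simulated data of the same 11211 genes, changes were planted only in genes with a mean value of at least 10. For Day7 against Day1, limma recovered 13 of 100 genes given an 8-fold change and 86 of 100 given a 64-fold change, with 8 false calls. Counts were drawn separately for each gene, without shifts shared across a library, so the false calls do not carry over to the real libraries. Correlations used 100000 permutations, two-sided with the smaller tail doubled; counting by the size of the coefficient was also tried, and both were run after the data were seen. The NRF1 letters searched in promoters were shortened after a longer form had been searched, for a reason of format and not of result.

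Members and lists were chosen with earlier results of these data known. Named genes were, by rule, up to 3 called members per comparison and complex, the 2 highest means per complex, the isoform pairs and called related genes; members that passed under another scaling, tool or by groups that did not overlap, the leading 5 members of a library, Sdha, Sdhc, Atp5a1, Ucp1, Ucp2, Ucp3, Ppargc1a, Cyc1, Ndufab1, Cycs, Col1a1 and Col1a2 were named after their values were seen. By BLAST 2.17.0, 28 of 82 members share at least 95% identity over at least 150 bases with another gene of the GENCODE annotation; none of Ndufa1, Ndufa3, Cox5a, Atp5e, Cox6b1 or Cox6b2 does. The annotation used is not of mm9, so positions are given only for RefSeq promoters.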

Additional observations from a re-analysis of the deposited data

Results flagged for a closer look

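Of 96 groups of 4 libraries checked, 6 (6.25%) held a library far from the other 3, where chance gives about 1 in 20. Atpif1 was at 226.9 in Day1 replicate 2, against 159 to 169 in the other Day1 libraries. Sdhd was at 51.22 in Day1 replicate 2, against 26.6 to 28.7 in the others. Cox4i2 was at 0.7567 in Day7 replicate 1 and at 0.2472 in Day1 replicate 1, with 0 in the other libraries of each group. A group with reads in only 1 library is always flagged, so these Cox4i2 flags were fixed by the rule. The rate of 1 in 20 does not apply to such groups. Complex II held 2.921% of member reads in 6h replicate 2, against 3.58% to 3.63%. Complex IV held 22.47% of member reads in 6h replicate 3, against 28.7% to 29.5%.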

How the results depend on the processing

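The members' median for Day1 against 6h, 0.11 as reported, lay near 0 and changed sign, at -0.29 by DESeq2, -0.25 by edgeR, -0.02 without 6h replicate 3 and with TMM scaling over the genes tested, and -0.0012 with median-of-ratios scaling. The members' median for Day7 against Day1 was -1.08 scaled to all reads and -0.79 scaled to reads outside haemoglobin, and for Day7 against 6h 0.59 and 0.42, and for Day1 against 6h 1.43 and 0.97. Without the pair of libraries with the fewest genes detected the Day7 against 6h median was 0.72, and with each library left out it was 0.73 to 1.65. Members higher in Day7 against Day1, 4 by the reported test, numbered 0 with no filter, 1 with median-of-ratios scaling, 0 in both read scalings (with 7 lower in each), 0 with a term for Y-linked reads, 8 with array weights, 7 with only the groups compared, 0 without that pair, 0 by edgeR and 15 by DESeq2, and 0 to 11 with each library left out. Of 11211 genes, 2779 were called in Day7 against Day1 with array weights and 1901 with only the groups compared, in either direction. Past an unadjusted limma p of 0.05 were 32.1% of members against 39.3% of all genes with array weights. With only the groups compared, these shares were 34.6% and 35.2%. In Day7 against 6h, 0 became 2 with array weights, 4 by DESeq2 and 0 to 1 with each library left out. Array weights there called 811 genes in all, with 20.5% of members and 22.6% of all genes past an unadjusted limma p of 0.05. Genes called in Day1 against 6h, 19 as reported, numbered 0 with pseudocount 4 or no filter, 7 with a mean of at least 10, 9 by TMM, 1207 and 252 in both read scalings, 2 with the Y-linked term, 47 with array weights, 82 with only the groups compared, 4 without the pair, 9 by edgeR, 193 by DESeq2 and 2 to 56 with each library left out. For Day7 against Day1, 648 became 57, 3963, 3549, 0, 2779, 1901, 410, 1 and 1766 with no filter, scaling to all reads, scaling to reads outside haemoglobin, the Y-linked term, array weights, only the groups compared, without the pair, edgeR and DESeq2, and 3 to 1187 with each library left out. For Day7 against 6h, 99 became 5 with pseudocount 4, 13 with no filter, 0 and 58 in both read scalings, 811 with array weights, 7 with only the groups compared, 1060 by DESeq2 and 2 to 693 with each library left out. The cause was not tested. The correlation of the Cox6b2/Cox6b1 ratio with the haemoglobin share, checked by leaving out each library after the data were seen, had r of 0.783 to 0.876. Of the 6 isoform relations, r for Cox7a1/Cox7a2 and Cox7a2l/Cox7a2 passed with the smaller tail doubled and not when permutations were counted by size.

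Replicate numbers were shared between the times, but only 1 of 12 same-number pairs correlated above 0.1 (range -0.231 to 0.125), so the numbers were not taken to pair the samples. With the replicate block, genes called were 45, 571 and 156 in the order above, and 2 members, Ndufa1 and Cox5a, were higher in Day7 against Day1.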
